A study of Homo sapiens with 4 samples.

Results

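Zinc transporters and metallothioneins were compared between chemotherapy-resistant MDA-MB-468/R cells and their parent, MDA-MB-468/WT (R and WT from here on). The members were all rows of the deposited files named SLC30A or SLC39A followed by a number, MT1 followed by a single letter, or MT2A. This gave 34 of 20809 rows, with 10 SLC30A, 14 SLC39A and 10 metallothionein genes. MDA-MB-468 is a human basal-type triple-negative breast cancer (TNBC) cell line, and MDA-MB-468/WT is the parental line with the treatment label none. MDA-MB-468/R is a subline of it that was treated with adriamycin (doxorubicin), cytoxan (cyclophosphamide) and taxotere (docetaxel) for 6 months. According to the methods of the study, adriamycin and cytoxan were given together and taxotere after them, in cycles at doses raised stepwise. The cells then recovered for an additional month, and whether RNA was taken before or after this recovery is not stated. A protocol label names the same drugs also for MDA-MB-468/WT, whereas its treatment label is none and its genotype label is WT. The groups were taken from the sample titles. Each group had 2 libraries of total RNA, and the selected subline is a single derived population, so drug selection and other differences between these cultures cannot be told apart. It is stated neither in the labels nor in the study whether replicates came from separate cultures. The p-values therefore rest on a spread among libraries that may be technical.

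Zinc reaches the cytosol through the SLC39A proteins (ZIP family), which move it in from outside the cell or out of organelles. The SLC30A proteins (ZnT family) move it the opposite way, out of the cell or into the Golgi, endosomes and secretory vesicles. Metallothioneins are small cysteine-rich proteins that bind zinc and copper in the cytosol and buffer oxidants and heavy metals. MTF1, a transcription factor that senses free zinc, drives metallothionein genes and SLC30A1 through short metal response elements in their promoters.

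The Ion AmpliSeq Transcriptome kit reads a single short amplicon per gene. The deposited values are log2 of reads per 1000000 reads on the targets (RPM) plus 1. Each amplicon has its own efficiency, so levels are compared between libraries and not between genes. The libraries held 6837602 to 7982596 reads as recovered from the values. Epithelial markers summed to 4474 to 5540 RPM and basal-type markers to 5764 to 7504 RPM, whereas ESR1, PGR and ERBB2 together reached 8.27 to 13.8 RPM. Of the fibroblast markers DCN and PDGFRB had no reads, and of the leukocyte markers PTPRC and CD3E had none. The 6 fibroblast markers summed to at most 18.1 RPM in any library. CD14, a myeloid marker, measured 83.4 to 84.6 RPM in WT and 70.5 to 71.5 RPM in R. The endothelial markers reached at most 9.50 RPM and the red cell markers at most 0.809 RPM.

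Promoters of these genes are shown because metal response elements are the known sites of zinc control. The core was searched as TGCACNC and TGCGCNC on both strands, with overlapping matches each counted, within the 250 bases before the transcription start in RefSeq sequences (build GRCh38.p14). Of the 34 members 25 had an entry, with 34 start windows in all. MT1A, MT1E, MT1F, MT1G, MT1L, MT1M, SLC30A8, SLC39A4 and SLC39A14 had none. The sequences of MT2A (chr16:56608334-56608583, plus strand), MT1X (chr16:56682220-56682469, plus strand), SLC30A1 (chr1:211579162-211579411, minus strand) and SLC39A7 (chr6:33200617-33200866, plus strand) are given 5′ to 3′ in gene orientation, with each core in capitals. MT2A and MT1X gave the most metallothionein reads, SLC30A1 is the exporter known to be driven by MTF1, and SLC39A7 is a transporter that differed between the groups.
MT2A: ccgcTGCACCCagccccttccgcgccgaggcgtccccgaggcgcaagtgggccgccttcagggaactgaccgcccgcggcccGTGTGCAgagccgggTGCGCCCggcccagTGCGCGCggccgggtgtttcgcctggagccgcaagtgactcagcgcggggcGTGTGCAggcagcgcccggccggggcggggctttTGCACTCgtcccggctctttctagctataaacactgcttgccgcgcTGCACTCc
MT1X: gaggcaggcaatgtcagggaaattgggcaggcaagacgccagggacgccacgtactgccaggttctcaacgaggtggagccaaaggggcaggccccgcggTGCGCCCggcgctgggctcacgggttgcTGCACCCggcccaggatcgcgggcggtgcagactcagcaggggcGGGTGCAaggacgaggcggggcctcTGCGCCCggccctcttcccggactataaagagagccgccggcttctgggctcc
SLC30A1: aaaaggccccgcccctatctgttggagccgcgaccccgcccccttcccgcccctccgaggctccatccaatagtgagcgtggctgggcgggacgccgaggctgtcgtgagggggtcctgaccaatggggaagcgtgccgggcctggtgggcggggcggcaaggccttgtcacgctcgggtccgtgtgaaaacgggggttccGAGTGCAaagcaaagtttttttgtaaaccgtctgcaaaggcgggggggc
SLC39A7: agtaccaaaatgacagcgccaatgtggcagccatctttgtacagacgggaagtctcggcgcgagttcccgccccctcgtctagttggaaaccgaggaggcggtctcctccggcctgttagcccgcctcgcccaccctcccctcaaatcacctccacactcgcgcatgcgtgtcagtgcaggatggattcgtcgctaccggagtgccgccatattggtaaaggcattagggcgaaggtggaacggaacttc

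The MT2A window held 7 cores and the MT1X window 4, whereas SLC30A1 had 1 and SLC39A7 had none. The other metallothioneins with an entry, MT1H and MT1B, had 8 and 3 cores. At least 1 core was found in 24.8% of the 35116 start windows in the table, and 3 or more in 1.58% of them. All 4 metallothionein windows therefore belonged to the small share with 3 or more cores. Among the transporters, 5 of 9 SLC30A genes and 5 of 12 SLC39A genes had a core in at least 1 window, with at most 3 in SLC30A2 and at most 1 in any SLC39A gene. Counted by window, as in the 24.8% over the table, a core was found in 54.5% of 11 SLC30A windows. Among 19 SLC39A windows the share was 26.3%, near that of the table. A core is a match of letters, and neither binding nor activity was measured.

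**Figure D1:**
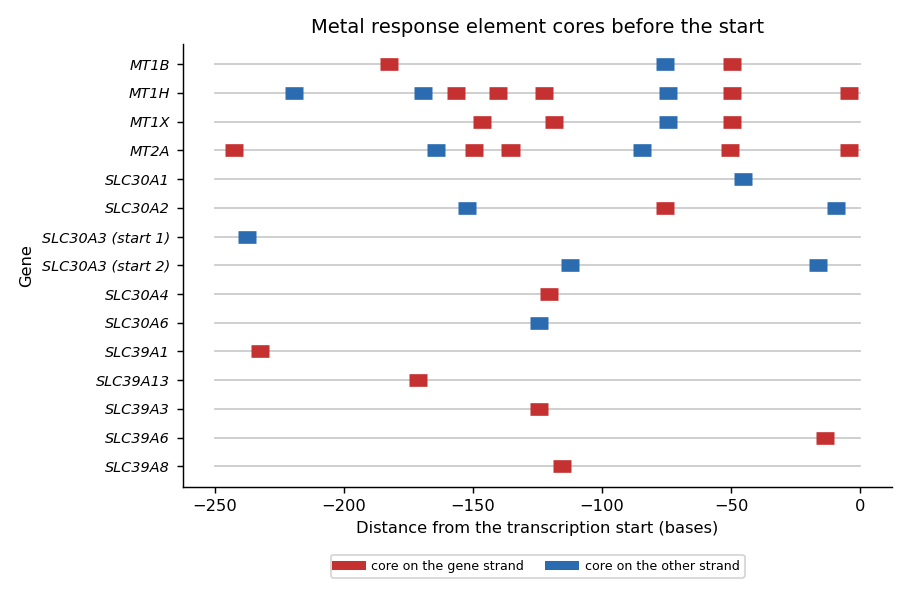
Positions of metal response element cores (x axis, bases from the transcription start) in each start window with at least 1 core (y axis), with red bars for the gene strand and blue bars for the other strand. MT1H, MT2A, MT1X and MT1B carry 8, 7, 4 and 3 cores, and SLC30A1 carries 1.

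To find which members differed between the resistant and the parental cells, limma was run on all 12118 genes with at least 10 reads in at least 2 libraries. Of the 34 members 22 were tested, with 6 SLC30A, 10 SLC39A and 6 metallothionein genes. At an adjusted p of at most 0.05, SLC39A4 and SLC39A7 rose and MT1E fell in R, and 19 members did not pass. Over all tested genes 5.36% were higher and 10.6% were lower by this rule, against 2 of 22 and 1 of 22 members, so the calls were near the background. With the added threshold of a 2.5-fold change, MT1E was the single member called, where 2.45% of all tested genes were called lower and 0.809% higher. The libraries of the groups did not overlap in 12 of 22 members, 6 in each direction, and in 58.3% of all tested genes (26.1% higher and 32.2% lower). The median log2 fold change was 0.07 for SLC30A, 0.03 for SLC39A and -0.12 for the metallothioneins, against -0.03 for all tested genes.

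**Figure D2:**
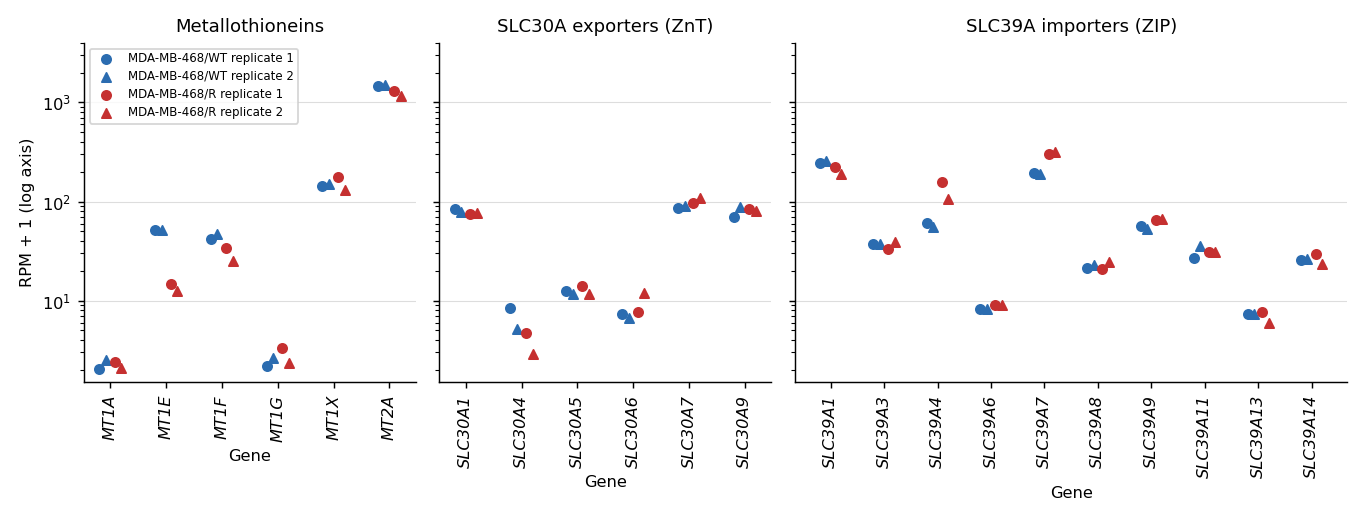
RPM plus 1 on a log axis for the 22 tested members (x axis, 3 families) in each library, with blue for WT, red for R, circles for replicate 1 and triangles for replicate 2. MT1E at 51.0 RPM in both WT libraries and at 11.5 and 13.7 RPM in R shows the widest gap, and SLC39A4 and SLC39A7 lie higher in both red libraries.

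Of the metallothioneins, MT1E was the single one called. MT1E, a zinc-binding isoform, measured 51.0 RPM in each WT library (349 and 407 reads) and 13.7 and 11.5 RPM in the R libraries (96 and 84 reads). Both R libraries lay below both WT libraries, and the deposited values of the latter were the same to 2 decimals. On the log2 scale of RPM plus 1, MT1E fell by 1.94 (standard error, SE, of 0.149, n = 2, limma adjusted p = 3.19e-04), a 3.84-fold decrease with a 95% interval of the log2 change from -2.29 to -1.59. In bulk RNA, fewer cells that express a gene and less RNA per cell cannot be told apart. The adjusted p was 0.0615 without WT replicate 1 and 0.0651 without WT replicate 2, with the log2 change the same at -1.94. With either library left out, 11 and 9 genes were called higher and 52 and 48 lower among all 12118.

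The metallothionein amplicon with the most reads, MT2A, measured 1447 and 1488 RPM in WT and 1313 and 1167 RPM in R. The groups did not overlap, but the log2 fold change of -0.25 (SE 0.101, n = 2) did not pass the test (limma adjusted p = 0.147, 95% interval -0.48 to -0.01). Without R replicate 1 it was -0.33 with an adjusted p of 0.0329. In such a fit the spread comes from the WT pair alone, and the lone R library is assumed to vary like it. MT1X, an isoform often induced by metals, measured 143 and 150 RPM in WT and 175 and 129 RPM in R. The R libraries lay on either side of the WT libraries, with a log2 fold change of 0.04 and a 95% interval of -0.32 to 0.39 (adjusted p = 0.903), and the sign turned without R replicate 1 (-0.19). MT1F measured 40.9 and 45.8 RPM in WT and 33.3 and 24.3 RPM in R. It was lower in both R libraries by a log2 fold change of -0.59 (SE 0.175, adjusted p = 0.0616), which passed without R replicate 1 (-0.81, adjusted p = 0.0437, again with the spread of the WT pair) and with limma-voom on the recovered reads (-0.61, adjusted p = 0.0494).

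MT1A and MT1G were near the filter, with 7 to 12 and 8 to 16 reads over the 4 libraries. Their groups overlapped, with log2 fold changes of 0 (95% interval -0.58 to 0.58) and 0.22 (95% interval -0.40 to 0.85). MT1M had 3 and 5 reads in WT and 8 and 12 reads in R, which was under the filter. Its ratio was 2.59 with a 95% exact counting interval of 1.09 to 6.79, which covers counting error only and not the spread between libraries. MT1B had 5 reads in all 4 libraries together, MT1H had 3, and MT1L, a transcribed pseudogene, had 0 in each library. A count of 0 allows up to 3 reads, or 0.376 to 0.439 RPM in these libraries.

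Because ratios within a library do not depend on the scaling of libraries, MT1E was also set against its relatives, a choice made after the values were seen. For every 100 RPM of MT1X there were 35.7 and 33.9 RPM of MT1E in WT and 7.84 and 8.90 RPM in R. For every 100 RPM of MT2A there were 3.52 and 3.43 RPM of MT1E in WT and 1.04 and 0.982 RPM in R. The replicates lay closer together than the groups in both ratios. As MT1E was picked for its fall, these ratios are a description and were not tested. MT1F per 100 RPM of MT1X was 28.6 and 30.5 RPM in WT and 19.0 and 18.9 RPM in R. Summed over the 10 amplicons, the metallothioneins measured 1712 ± 38.3 RPM (SD, n = 2) in WT and 1438 ± 145 RPM in R. MT2A made up 85.2% to 87.4% of this sum in the 4 libraries, whereas MT1E made up 3.03% and 2.93% in WT and 0.891% and 0.858% in R. These shares rest on amplicons that may amplify with different efficiency.

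**Figure D3:**
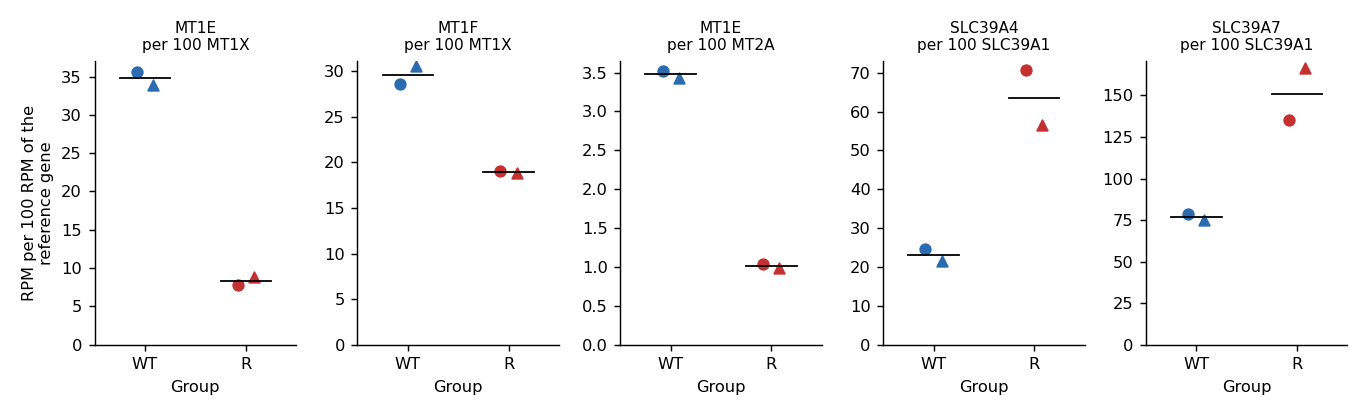
RPM of a member per 100 RPM of a reference member of its family (y axis from 0) in WT (blue) and R (red), with circles for replicate 1, triangles for replicate 2 and lines for the means of 2 libraries. MT1E per 100 RPM of MT1X falls from 34.8 to 8.37, and SLC39A4 and SLC39A7 per 100 RPM of SLC39A1 rise from 23.1 to 63.5 and from 76.8 to 150.5. SLC39A1 itself was lower in both R libraries, and the ratios were not tested.

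All 6 tested metallothioneins had a higher value in replicate 1 than in replicate 2 of R, where 54.1% of all tested genes did. In WT, 5 of 6 were higher in replicate 2, where 46.3% of all tested genes were, and MT1E had the same value in both. Over all tested genes the log2 values of the replicates differed with an SD of 0.355 in R and 0.210 in WT. The part of this difference between the R libraries in MT1F, MT2A and MT1X was not tested.

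Metallothionein genes are closely related copies, and whether reads were split between them was not tested. The coding sequences of 8 of them, of 186 bases each in GENCODE transcripts, were 88.7% to 94.6% identical over 28 pairs. MT1E differed from its nearest relative, MT1A, in 10 bases (94.6% identity) and from MT2A in 14 bases. The positions of the amplicons were not given in the sources used here. MT1JP, a metallothionein pseudogene that is not a member and lies directly after MT1E among the tested genes, also fell, from 8.32 and 10.2 RPM in WT to 1.43 and 2.05 RPM in R (log2 fold change -1.91, SE 0.225, limma adjusted p = 0.00188). Whether MT1JP and MT1E share reads was not tested. The pseudogenes MT1DP and MT1IP and the tissue-restricted MT4 had 0 reads, and MT3, the brain isoform, had 2 reads in WT replicate 1 alone.

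Of the 10 tested SLC39A importers, 2 rose and 8 did not pass limma, and none fell at the adjusted threshold, where 5.36% of all tested genes were higher and 10.6% lower. SLC39A1 was lower at an unadjusted p of 0.0347. SLC39A7 (ZIP7), which releases zinc from the endoplasmic reticulum and Golgi into the cytosol, measured 192 and 190 RPM in WT and 297 and 312 RPM in R. Both R libraries were above both WT libraries, and replicates differed little. The log2 fold change was 0.67 (SE 0.0955, n = 2, 95% interval 0.45 to 0.89, limma adjusted p = 0.00449), a 1.59-fold increase. The adjusted p was 0.205 without WT replicate 1 and 0.203 without WT replicate 2, at log2 fold changes of 0.68 and 0.66.

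SLC39A4 (ZIP4), the plasma membrane importer of dietary zinc whose loss causes acrodermatitis enteropathica, measured 60.4 and 54.7 RPM in WT and 155 and 106 RPM in R. The groups did not overlap, and the R libraries were further apart than those of WT. The log2 fold change was 1.15 (SE 0.181, n = 2, 95% interval 0.72 to 1.57, limma adjusted p = 0.00673), a 2.21-fold increase, which is under the 2.5-fold threshold. Leaving out R replicate 2 raised it to 1.42, past the 2.5-fold threshold, and leaving out R replicate 1 lowered it to 0.87. The adjusted p was 0.178 without WT replicate 1 and 0.203 without WT replicate 2.

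SLC39A4 lies near the end of chromosome 8, and its neighbours there moved with it. Of the 20 nearest tested genes, 10 on each side, all 20 had a log2 fold change above 0 and 15 passed the test as higher, with a median of 0.80 and a range of 0.50 to 1.22, against a median of -0.03 over all tested genes. The value of SLC39A4 was thus within the range of its neighbours, and the part of this stretch of chromosome 8 in its change was not tested. SLC39A7 lies on chromosome 6 in the major histocompatibility region, where 4 of the 20 nearest tested genes rose and 3 fell, with a median of 0.17. RING1, VPS52, RPS18 and WDR46, which rose by 0.53, 0.74, 0.42 and 0.58, lie within 6 tested genes of SLC39A7 on one side, and the antigen presentation genes TAP1, TAP2 and PSMB9 fell on the other. Of these 20 neighbours 12 had a log2 fold change above 0 and 8 below, with both signs on each side. Around MT1E on chromosome 16, where all 10 metallothionein members lie in a cluster, 2 of the 20 nearest tested genes rose, MT1JP fell, and the median was 0.02. For the calls around each of these genes, the shares over all tested genes were 5.36% higher and 10.6% lower.

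**Figure D4:**
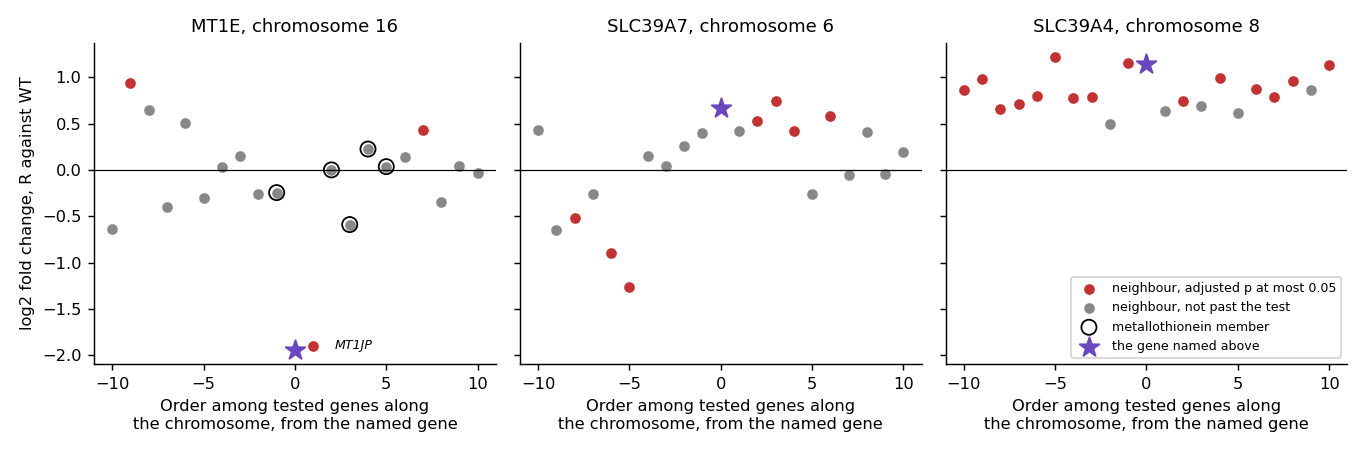
Log2 fold change of R against WT (y axis) for the 10 nearest tested genes on each side of MT1E, SLC39A7 and SLC39A4 (x axis, order along the chromosome), with a star for the named gene, red for neighbours past the test and rings for metallothionein members. All 20 neighbours of SLC39A4 lie above 0, whereas those of MT1E lie on both sides with MT1JP at -1.91.

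Of the other importers, SLC39A1 (ZIP1), a plasma membrane importer of many tissues, measured 245 and 253 RPM in WT and 220 and 188 RPM in R. It was lower in both R libraries, with a log2 fold change of -0.29 (SE 0.112, n = 2) that did not pass (limma adjusted p = 0.126), and it passed without R replicate 1 (-0.41, adjusted p = 0.0364, with the spread from the WT pair alone). For every 100 RPM of SLC39A1 there were 24.7 and 21.6 RPM of SLC39A4 in WT and 70.6 and 56.4 RPM in R. The same ratio of SLC39A7 was 78.4 and 75.2 RPM in WT and 135 and 166 RPM in R. Because SLC39A1 itself was lower in R, these ratios rose further than the RPM of the 2 genes. They rose 2.74-fold and 1.96-fold, against 2.271-fold and 1.595-fold in mean RPM. As SLC39A4 and SLC39A7 were picked for their rise, the ratios are a description and were not tested. Summed over the 14 amplicons, the SLC39A genes measured 678 ± 6.82 RPM (SD, n = 2) in WT and 831 ± 44.7 RPM in R.

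SLC39A9, an importer of the Golgi, measured 55.5 and 51.7 RPM in WT and 63.9 and 65.7 RPM in R. The groups did not overlap, and the log2 fold change of 0.27 did not pass (95% interval -0.000860 to 0.54, limma adjusted p = 0.161). SLC39A6 (ZIP6), an estrogen-responsive importer, had 49 and 57 reads in WT and 56 and 58 reads in R, a log2 fold change of RPM plus 1 of 0.14 (95% interval -0.28 to 0.55). SLC39A14 and SLC39A8, which also carry iron and manganese, had log2 fold changes of 0.04 (95% interval -0.34 to 0.41) and 0.03 (95% interval -0.34 to 0.40). SLC39A3, SLC39A11 and SLC39A13 had log2 fold changes of -0.06, 0.01 and -0.11, and the groups overlapped in each of them. All 8 importers that did not pass had a 95% interval within 1 log2 unit on either side of 0, that is, within a doubling or halving. Over all tested genes this held for 9174 of the 10179 that did not pass. SLC39A2 had 7 and 5 reads in WT and 2 and 0 in R, a ratio of 0.172 (95% exact counting interval 0.0187 to 0.774). SLC39A10, known in breast cancer as a partner of SLC39A6, had only 1 to 6 reads per library, SLC39A5 had 3 reads in WT replicate 2 alone, and SLC39A12 had 0 throughout.

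**Figure D5:**
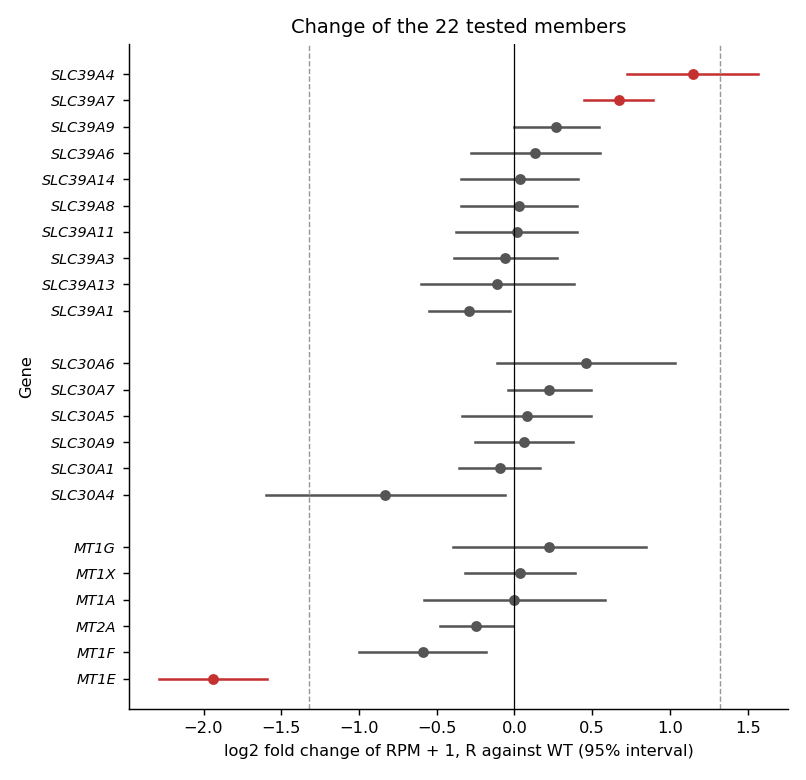
Log2 fold change of RPM plus 1, R against WT (x axis), with its 95% interval from limma for each of the 22 tested members (y axis), in red where the adjusted p was at most 0.05. The dashed lines mark a 2.5-fold change, which MT1E passes at -1.94 and SLC39A4 at 1.15 does not.

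None of the 6 tested SLC30A exporters passed limma at the adjusted threshold of 0.05, and 1 had an unadjusted p of at most 0.05, where 31.3% of all tested genes did. SLC30A1 (ZnT1), the zinc exporter of the plasma membrane and a target of MTF1, measured 82.3 and 77.2 RPM in WT and 73.0 and 76.2 RPM in R. The groups did not overlap but lay close, with a log2 fold change of -0.09 (SE 0.111, n = 2, 95% interval -0.35 to 0.16, limma adjusted p = 0.611). SLC30A7 (ZnT7), which loads zinc into the Golgi, measured 85.2 and 88.3 RPM in WT and 95.3 and 108 RPM in R. It was higher in both R libraries without passing (log2 fold change 0.22, SE 0.115, adjusted p = 0.229). SLC30A9 measured 69.5 and 86.4 RPM in WT and 82.3 and 79.5 RPM in R, so the groups overlapped (log2 fold change 0.06, 95% interval -0.25 to 0.37).

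SLC30A4 (ZnT4), an exporter of endosomes and secretory vesicles in the mammary gland, had the lowest unadjusted p of the family (0.0375). It measured 7.46 and 4.13 RPM in WT and 3.72 and 1.91 RPM in R. Replicate 1 was higher than replicate 2 in both groups, and the log2 fold change of -0.83 had a wide interval of -1.60 to -0.06 (adjusted p = 0.132). SLC30A6 (ZnT6), which pairs with SLC30A5 in the early secretory pathway, measured 6.31 and 5.64 RPM in WT and 6.73 and 10.9 RPM in R (log2 fold change 0.46, 95% interval -0.11 to 1.03). SLC30A5 itself measured 10.8 to 13.0 RPM over the 4 libraries, with a log2 fold change of 0.08 (95% interval -0.33 to 0.49). SLC30A2, the exporter that supplies zinc to milk, had 1 and 3 reads in WT and 4 and 6 in R, a ratio of 2.59 with a 95% exact counting interval of 0.746 to 11.3. SLC30A3, the synaptic vesicle transporter, had 8 reads in all, SLC30A10, a manganese exporter, had 1, and SLC30A8, the insulin granule transporter, had 0. The summed SLC30A amplicons measured 268 ± 7.38 RPM (SD, n = 2) in WT and 282 ± 9.51 RPM in R.

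The zinc sensor MTF1 measured 59.6 and 60.0 RPM in WT and 44.6 and 63.5 RPM in R, so the groups overlapped. Its log2 fold change was -0.16 (SE 0.173, n = 2, 95% interval -0.57 to 0.24, limma adjusted p = 0.566), and it turned to 0.09 without R replicate 1 but reached -0.41 when R replicate 2 was left out (adjusted p = 0.0466, with the spread of the WT pair). MTF1 was part of a list of 33 other metal-handling genes, of which 26 were tested. SLC11A2, which carries iron and other divalent metals into the cytosol, rose, and ATOX1, SOD1, CP and CNNM1 fell, and 21 did not pass, with a median log2 fold change of -0.11. By share this was 1 of 26 higher and 4 of 26 lower, against 5.36% and 10.6% of all tested genes. The 4 lower genes include CNNM1, which met the filter through its WT reads alone. SLC11A2 measured 64.3 RPM in both WT libraries and 84.6 and 92.7 RPM in R (log2 fold change 0.46, adjusted p = 0.0341).

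Of the lower genes, the copper chaperone gene ATOX1 measured 174 and 169 RPM in WT and 129 and 126 RPM in R (log2 fold change -0.42, limma adjusted p = 0.0274). SOD1, the copper and zinc superoxide dismutase, measured 916 and 935 RPM in WT and 629 and 738 RPM in R (log2 fold change -0.44, adjusted p = 0.0333). CP, the copper-carrying ferroxidase ceruloplasmin, measured 31.2 and 29.7 RPM in WT and 14.6 and 17.9 RPM in R (log2 fold change -0.88, adjusted p = 0.0112). CNNM1, a member of a family linked to magnesium transport, had 15 and 28 reads in WT and 2 in each R library (log2 fold change -1.56, adjusted p = 0.00867). The size of this change depended on the RPM added before the logarithm, at -2.51 with 0.25 RPM and -0.67 with 4 RPM, and the ratio of reads was 0.0962 (95% exact counting interval 0.0251 to 0.265). The calls of all 5 genes were lost without WT replicate 1 or without WT replicate 2 (limma adjusted p of 0.0715 to 0.427), and that of CNNM1 also without either R library (0.0702 and 0.0713). Without a mean trend, limma did not call SLC11A2, ATOX1 or SOD1 (adjusted p of 0.0788, 0.0848 and 0.105), and SOD1 was not called without the filter (0.0523). HMOX1, which is induced by heavy metals and oxidants, did not pass, with a log2 fold change of 0.15 (95% interval -0.24 to 0.54).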

How the data were processed

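RNA abundance was measured with the Ion AmpliSeq Transcriptome kit in 2 libraries each of the resistant (R) and parental (WT) cells. The methods of the study name the Torrent Mapping Alignment Program against the targeted transcripts and DEGSeq, whereas Bowtie2, bedtools and edgeR appear, with no version, in the processing notes of the submitters. The genome build was not given in the sources used here. The authors deposited log2 values rounded to 2 decimals. Undoing the logarithm gave 999854 to 1000057 RPM per library, which fits log2 of RPM plus 1 scaled to the targeted reads. The size of 1 read came from the lowest values, and every value below about 20 reads came out whole within 0.1. Amplicon reads carry no molecular identifiers, so intervals and floors cover counting error only.

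The deposited log2 values were tested with limma 3.58.1 under R 4.3.3, using a group term, a variance prior that follows the mean, and Benjamini-Hochberg adjustment over the 12118 genes that reached 10 reads in 2 or more libraries. Each gene had 2 residual degrees of freedom, to which the prior added 5.40. The fit was also run on simulated data with the same spread for all genes and both groups. That spread was set below the one pooled over the replicates, before counting error was added, so no result here rests on it. DEGSeq was not used, because its model leaves out the spread between replicates. Of the tested genes 97.7% were placed in chromosome order with the RefSeq table (GRCh38.p14). Groups came from the sample titles. A marker gene of another cell type is not reported here. Members and lists were chosen with earlier results of these data known. Named with full values were members past the adjusted p, the 3 with the highest mean RPM in each family, and those whose call changed with a library left out. Of the metal-handling list, genes past the adjusted p and MTF1, MT3 and MT4 were named. SLC30A4, SLC30A5, SLC30A6, SLC39A6, SLC39A9, MT1JP, HMOX1 and the neighbouring genes were named after their values were seen. Alternatives were median-of-ratios scaling, no filter, 0.25 or 4 RPM added in place of 1, limma-voom on recovered reads, limma without a trend, an unadjusted p, a read-sampling model, the replicate block, and each library left out.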

Additional observations from a re-analysis of the deposited data

How the results depend on the processing

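SLC39A4, SLC39A7 and MT1E kept their direction under all 11 refitted alternatives and their call under 9 of them, the exceptions being the fits without WT replicate 1 or WT replicate 2. With 1 library left out, the higher members numbered 0 to 2, the lower members 0 to 4, those upregulated at least 2.5-fold 0 to 1 and those downregulated 0 to 1, and the higher and lower metal-handling genes 0 to 3 and 0 to 4. With 1 library left out the spread rests on the pair of the other group, so those counts are not read as a result about the members. The lower members numbered 2 with limma-voom (MT1E and MT1F), where 1330 of all 12118 genes were lower. With an unadjusted p they numbered 5, where 2310 of all 12118 genes were lower. The read-sampling model, which takes no account of replicate spread, called 5 members higher and 5 lower and called 2867 and 3528 of all genes. Of the 26 tested metal-handling genes, 2 were higher with median-of-ratios scaling and with limma-voom, where 769 and 655 of all genes were. Without a mean trend 0 were higher and 2 lower, where 491 and 1113 of all genes were. With an unadjusted p 3 were higher and 8 lower, where 1480 and 2310 of all genes were. The read-sampling model called 5 of them higher and 10 lower. With the replicate block 2 members were lower (MT1E and SLC30A4) and 2 higher, where 1114 and 497 of all genes were. By the same fit 0 metal-handling genes were higher and 2 lower. Equal replicate numbers are not stated to mark a shared batch, and the main fit held no block. The deviations of same-numbered libraries correlated at 0.00868 across genes. A value over all genes cannot show whether a shared batch affected single genes. With 1 library left out, signs turned for MT1X (-0.185 to 0.255, turned without R replicate 1), SLC30A9 (-0.095 to 0.215, turned without WT replicate 1) and MTF1 (-0.415 to 0.085, turned without R replicate 1), and of these MTF1 passed without R replicate 2. Over all refits of the named genes 25 calls were lost and 5 gained, the block among the settings that lost SLC11A2, ATOX1 and SOD1 (adjusted p of 0.0677, 0.0664 and 0.0602). The median log2 fold change ranged from -0.01 to 0.115 for SLC39A, from -0.005 to 0.125 for SLC30A and from -0.2575 (without R replicate 1) to 0 (no filter) for the metallothioneins. The cause of these changes was not tested. With 2 libraries a group the precision rests on few degrees of freedom, and the 12 members under the filter were not tested.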
